A study of Drosophila melanogaster with 3 samples.

Results

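The 9 genes described here form the core of the cell death pathway of Drosophila: the death activators hid, grim, rpr and skl, the caspases Dronc, Drice and Dcp-1, the caspase activator Dark and the caspase inhibitor Diap1. They were chosen by name, out of 13945 protein-coding genes on the major chromosome arms. Each gene was described by its gene body plus 20 kb on each side, which is called its window. Binding of Blimp-1 was mapped by chromatin immunoprecipitation and sequencing with an antibody against green fluorescent protein (GFP), in 3 biological replicates of whole prepupae of mixed sex. All animals came from 1 transgenic line that expresses Blimp-1 with GFP at its C terminus, so there is 1 group, and the labels give its age only as prepupa. A control experiment that the labels name as possible was not analysed here, and as whole animals were used, a site cannot be assigned to a tissue.

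The steroid hormone ecdysone starts metamorphosis, and one gene it induces is that of the repressor Blimp-1, a DNA-binding zinc finger protein. In Drosophila, pulses of ecdysone also trigger the death of larval tissues such as the midgut and the salivary glands, and hid and rpr are known to be induced there before the cells die. The proteins of hid, grim, rpr and skl bind Diap1, a ubiquitin ligase that holds caspases inactive. Once Diap1 is displaced, the initiator caspase Dronc assembles with the adaptor Dark and cleaves the effector caspases Drice and Dcp-1, which dismantle the cell.

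Sites are merged peaks of the authors' IDR list on dm6, which keeps peaks whose rank repeats between replicates by the irreproducible discovery rate. There were 4990 sites in all, and 26 of them (0.521%) had their summit in a window of the 9 genes. Relative signal is the peak's deposited signal in a replicate, divided by that replicate's median over the sites with a peak in its list. A value of 1 is thus the median of those sites, called a median site. Replicates 1, 2 and 3 lacked a peak at 2, 35 and 589 of the 4990 sites. The divisor of replicate 3 thus covers fewer sites, and its values are not on quite the same footing as the others. The lists hold no read counts, so the depth of the libraries is unknown.

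The hid window was rich in Blimp-1 sites and those of grim, skl and Dronc had none. The hid window held 9 sites, that of Diap1 6, that of Dark 4, those of rpr and Drice 3 each and that of Dcp-1 1. A site was thus present at 6 of the 9 genes (66.7%), against 76.2% of all protein-coding genes with windows made the same way. Over the union of the windows, 408 kb, this came to 6.37 sites per 100 kb, against 3.73 over the major arms. That sets windows drawn around genes against whole arms, and hid alone gave 9 of the 26 sites. Window by window, the median density was 7.16 per 100 kb for the 9 genes and 4.42 for all protein-coding genes. The median was 3 sites in the windows of the 9 genes and 2 in those of all protein-coding genes. At least 9 sites, as at hid, were found in the windows of 194 protein-coding genes (1.39%). Windows of long genes are longer, and per 100 kb the hid window held 15.5 sites, a density reached by 2.56% of protein-coding genes, against a median of 4.42. The Diap1 window held 11.4 sites per 100 kb. A count of at least 6 sites, as at Diap1, was reached by 7.72% of protein-coding genes.

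**Figure D1:**
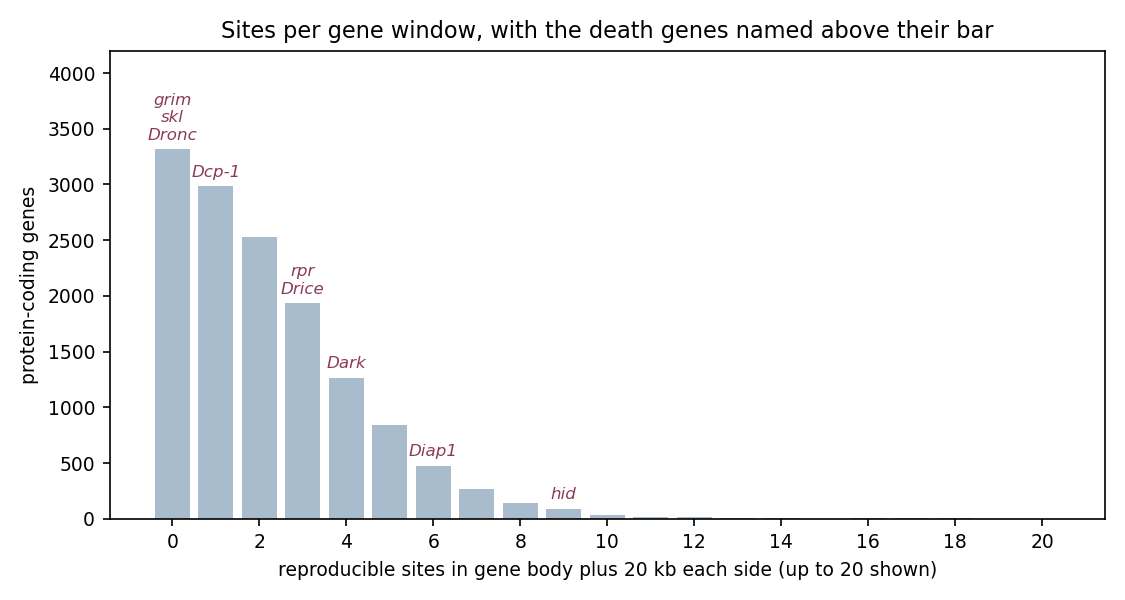
Number of protein-coding genes (vertical axis) by the number of reproducible Blimp-1-GFP sites in the gene body plus 20 kb on each side (horizontal axis, up to 20 shown). The names of the 9 death genes stand above the bar of their own count: hid lies at 9 and Diap1 at 6, while grim, skl and Dronc lie at 0.

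Sites within 1000 bp of an annotated transcription start site (TSS), called promoter sites, were present at 4 of the 9 genes (44.4%): hid, rpr, Diap1 and Dark. The share among all protein-coding genes was 18.7%. Diap1 has 5 annotated TSSs and the other 8 genes have 1 each. With a limit of 500 bp, the genes with a promoter site were hid, rpr and Dark, and the share of all protein-coding genes was 15.3%. Sites inside the gene body were found at the genes hid, rpr, Dark and Diap1 (44.4% of the 9), against 13% of all protein-coding genes. At rpr and Dark, and for 3 of the 4 sites at Diap1, these were the promoter sites already counted. No allowance was made for gene length, which is 17897 bp at hid and 12625 bp at Diap1.

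The sequences under main sites of the hid, rpr, Diap1 and Drice windows are shown here, to be read beside the values given below. The summit shown for the Drice window lies 56 bp upstream of the TSS of Etfb and 3.34 kb from that of Drice. Each stretch is from the RefSeq copy of release 6, the assembly known as dm6, and is written along the strand of the death gene. Capitals mark GAAAG, the core of the Blimp-1 recognition sequence known as the PRDI-BF1 consensus, on either strand, and any stretch that departs from the full consensus in at most 1 base. The stretches are centred on the hid promoter summit (chr3L:18185935-18186035, minus strand), the hid intron summit (chr3L:18184134-18184234, minus strand), the strongest Diap1 summit (chr3L:16043157-16043257, minus strand) and the strongest summit of the Drice window (chr3R:29802951-29803051, plus strand). At rpr the summit lies in the 5′ UTR, and the 81 bases of the site upstream of the TSS are given (chr3L:18398436-18398516, minus strand). These bases leave out the rpr summit, which had 3 copies of GAAAG within 100 bp, the nearest centred 15 bp away.
hid promoter site: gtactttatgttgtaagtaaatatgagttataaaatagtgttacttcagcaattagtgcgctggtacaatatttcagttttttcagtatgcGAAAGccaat
hid intron site: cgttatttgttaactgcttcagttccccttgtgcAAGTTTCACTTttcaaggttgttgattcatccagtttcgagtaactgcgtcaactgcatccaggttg
rpr promoter site, upstream part: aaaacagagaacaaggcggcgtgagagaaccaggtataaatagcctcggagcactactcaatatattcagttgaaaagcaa
Diap1 strongest site: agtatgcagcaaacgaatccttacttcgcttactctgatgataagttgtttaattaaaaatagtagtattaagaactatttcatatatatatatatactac
Drice window, strongest site: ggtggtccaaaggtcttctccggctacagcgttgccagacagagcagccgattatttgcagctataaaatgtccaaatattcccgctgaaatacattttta

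Near-matches to the PRDI-BF1 consensus were present at some of these sites, at about the frequency of all sites. Of the 26 sites, 6 (23.1%) held a match with at most 1 mismatch no farther than 100 bp from the summit, against 22.1% of all 4990 sites. A full match was found at 0 of the 26 sites and at 3.69% of all sites. Beyond the hid window, 2 sites 21.5 and 29.2 kb upstream of hid held a full match. At the 26 sites, a match with at most 2 mismatches was found at 15, and over all sites at 65.9%. The short core GAAAG, read on both strands, lay within 100 bp at 9 of the 26 sites (34.6%), against 55.4% of all sites. The longer core GTGAAAG, which contains GAAAG, was found at 1 of the 26 sites, the Dark promoter site, and at 8.5% of all sites. No match here says only that these letters are not in the window.

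The near-matches of the hid, rpr and Diap1 windows are shown to let their bases be compared. They are written 5′ to 3′ along the strand of the match, and the base in lower case departs from the consensus. The strongest site of the hid window held a pair of them, with centres 10 and 88 bp from the summit, and the match of the hid intron site lay 11 bp from its summit. At rpr the match lay 47 bp from the summit, and in the Diap1 window the matches lay 67 and 70 bp from theirs.
hid window, strongest site (chr3L:18162361-18162371, plus strand): AAcTGAAAGCG
hid window, strongest site (chr3L:18162263-18162273, minus strand): AAcCGAAAGTG
hid intron site (chr3L:18184190-18184200, plus strand): AAGTGAAAcTT
rpr promoter site (chr3L:18398289-18398299, minus strand): AAGaGAAAGTT
Diap1 intron site (chr3L:16048451-16048461, plus strand): AAGCGAAAaTG
Diap1 window, site at CG5895 (chr3L:16037252-16037262, plus strand): AAGCGtAAGTT

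The death activator hid, whose protein carries a Diap1-binding N terminus, is transcribed from the minus strand of chromosome 3L (18167745 to 18185641). Its promoter site, from 18185773 to 18186159, had its summit 344 bp upstream of the TSS in intergenic sequence. Relative signal there was 2.55, 2.38 and 3.61 in replicates 1, 2 and 3, a mean of 2.84 ± 0.67 (SD, n = 3). All 3 values lay above the median site, and replicate 3 was the highest. The site ranked 482 among the 4990 by deposited signal. Among the 2607 protein-coding genes with a promoter site, hid ranked 341 by the mean relative signal of the strongest one. Next above it stood Cpr65Aw (2.85 ± 0.59) and l(2)gd1 (2.85 ± 0.67), and next below it Sobp (2.83 ± 0.36) and CG42269 (2.81 ± 0.89; SD, n = 3 replicates each). These neighbours differ from hid by less than the spread between replicates.

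Upstream of hid the sites continued as a dense run. Between the TSS of hid and the gene grim lie 117 kb, and this stretch held 20 sites, from 0.344 to 55.6 kb upstream of hid. Their mean relative signals ran from 0.51 to 2.84 with a median of 1.14. Within 10 kb of the TSS the summits lay 0.344, 5.02, 7.38, 8.83 and 9.55 kb upstream. At 5.02 and 7.38 kb, relative signal was 2.23, 2.06 and 2.70 (2.33 ± 0.33) and 2.18, 2.21 and 2.62 (2.34 ± 0.24) in replicates 1, 2 and 3 (SD, n = 3). At 9.55 kb it was 2.31, 1.93 and 3.21, a mean of 2.48 ± 0.66 (SD, n = 3). The hid promoter site was above each of these 3 sites in all 3 replicates.

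Farther upstream the sites were weaker. The 14 sites that lay beyond the 20 kb flank, in the same stretch towards grim, had mean relative signals from 0.51 to 1.33. Their summits were in intergenic sequence, but the TSS of CG7320 lay between them and hid. Those with a full consensus match, 21.5 and 29.2 kb upstream, reached 0.61 ± 0.23 and 0.75 ± 0.10 (SD, n = 3), below the median site in all 3 replicates. The site just inside the flank on this side lay 13.3 kb upstream of hid with a relative signal of 0.89 ± 0.17, and the first one outside it was that 21.5 kb upstream (SD, n = 3). From 8.83 kb upstream onward, the sites were nearer to the TSS of another gene, CG7320 or CheA75a, than to that of hid.

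The strongest site of the hid window was not at hid. It lay from 18162116 to 18162650, 23.3 kb downstream of the hid TSS and past the 3′ end of the gene, and its summit was in the 5′ UTR of CG13699, 166 bp from that gene's TSS. Relative signal was 4.53, 5.63 and 3.53 in replicates 1, 2 and 3, a mean of 4.56 ± 1.05 (SD, n = 3), and the site ranked 179 among all sites. It was the highest site of the window in replicates 1 and 2, and in replicate 3 the hid promoter site was higher, at 3.61 against 3.53. Another site of the window lay 390 bp upstream of CG7330 and reached 1.82 ± 0.39 (SD, n = 3). Inside hid a single site lay in an intron, 1457 bp downstream of the TSS, with values of 1.04, 1.08 and 0.23. It was near the median site in replicates 1 and 2 and far below it in replicate 3.

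**Figure D2:**
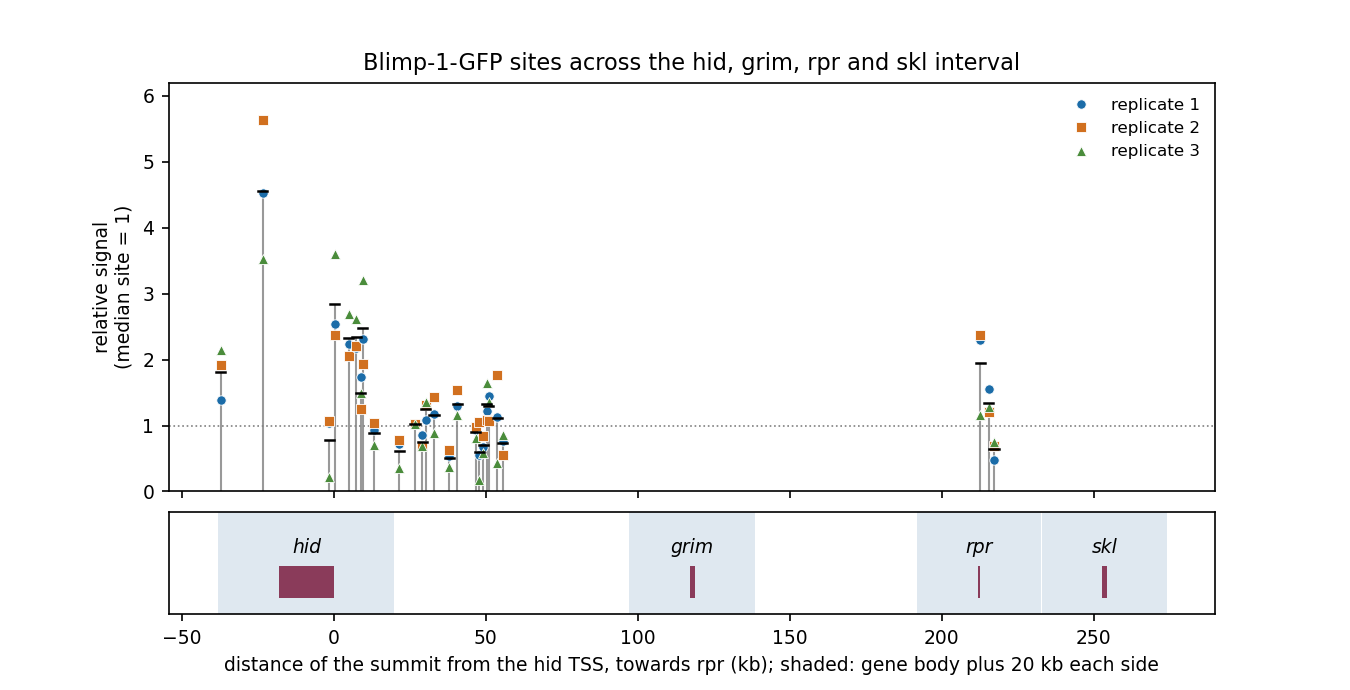
Relative signal (vertical axis, 1 is the median site) of the 26 reproducible sites between the outer ends of the hid and skl windows, by distance of the summit from the hid TSS in kb, positive upstream of hid towards rpr (horizontal axis). Points are replicates, short black lines are means, dark boxes are genes and shading marks the windows. The sites form a group at hid, from 37.1 kb downstream to 55.6 kb upstream of its TSS, and a group of 3 at rpr, with 0 sites at grim and skl.

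The death activator rpr, whose small protein also binds Diap1, had a promoter site of its own. The site, on chromosome 3L from 18398201 to 18398516, had its summit in the 5′ UTR of rpr, 94 bp downstream of the TSS. Relative signal was 2.30, 2.38 and 1.16 in replicates 1, 2 and 3, a mean of 1.95 ± 0.68 (SD, n = 3). Replicate 3 was the lowest here, whereas it was the highest at the hid promoter. Summits 2.75 and 4.43 kb upstream of rpr reached 1.35 ± 0.18 and 0.64 ± 0.14 (SD, n = 3). All 3 sites of the window were nearest to the TSS of rpr, and in replicates 1 and 2 the values fell with distance from it. In replicate 3 the site 2.75 kb upstream, at 1.28, was above the promoter site at 1.16. Among the 2607 genes with a promoter site rpr ranked 659.

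The death activators grim and skl, which lie on the same chromosome arm and encode proteins with a like Diap1-binding N terminus, had 0 sites in their windows. The site nearest to grim lay 61.4 kb from the gene and the one nearest to skl 35.7 kb away. From the last site upstream of hid to the rpr promoter site, a stretch of 157 kb that contains grim held 0 sites. Of the 4984 distances between neighbouring sites on the major arms, 2.27% were at least that long, and their median was 8.67 kb. The authors' relaxed list of pooled replicates, which goes down to weaker peaks and includes background, held 20 further regions in this stretch. Their deposited signals were 43.0 to 147, below the lowest signal of the IDR list, 205. In the relaxed lists of the single replicates relative signal there reached at most 0.38, 0.57 and 0.62 in replicates 1, 2 and 3. Only replicate 3 had a peak there among the 4990 strongest of its list, and it had 1. Binding at grim was thus not detectable above the threshold of the list, which does not show that it was absent.

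The interval from the hid window to the skl window spans 312 kb and holds 26 sites in all, 12 of them in the windows of hid and rpr. This is not the set of 26 sites in the windows of the 9 genes, although the counts are equal. All 26 had a peak in the relaxed list of each of the 3 replicates, as did 87.7% of all sites.

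The caspase genes Dronc, Drice and Dcp-1 had no promoter site, where 18.7% of all protein-coding genes had one. So few genes cannot be told apart from that share. Dronc, the initiator caspase gene on chromosome 3L (9968479 to 9971002), had 0 sites in its window, and the nearest one lay 79.7 kb away. Drice, the main effector caspase gene, on chromosome 3R (29799658 to 29801584), had 3 sites in its window. The strongest had its summit 56 bp upstream of the TSS of Etfb, which encodes a subunit of the electron transfer flavoprotein, and 3.34 kb from that of Drice. Relative signal there was 2.27 in replicate 1 and 1.86 in replicate 2 (2.07 ± 0.29, SD, n = 2), and replicate 3 had no peak in its list. The others lay in introns of kay, which encodes the Fos subunit of the AP-1 transcription factor, and reached 1.21 ± 0.13 and 1.14 ± 0.30 (SD, n = 3). They were 13.0 and 11.6 kb upstream of Drice. All 3 sites of the window thus lay nearer to the TSS of another gene than to that of Drice.

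The effector caspase gene Dcp-1, on chromosome 2R (23551313 to 23553547), had 1 site in its window, 18.9 kb downstream of its TSS, in an intron of apt, a transcription factor gene. Relative signal was 1.11, 0.94 and 1.59 in replicates 1, 2 and 3, a mean of 1.22 ± 0.34 (SD, n = 3). The values lay on both sides of the median site.

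Below the threshold, the promoters of these genes were not alike. Within 1000 bp of a TSS, the pooled relaxed list, which includes background, held a region at all 9 genes, against 45.4% of protein-coding genes. For the 5 genes without a promoter site, its deposited signal was 192 at Drice, 168 at Dcp-1, 63.3 at skl, 57.3 at Dronc and 43.0 at grim. All 5 thus fell short of the lowest IDR peak at 205, Drice and Dcp-1 by less than the other 3. Among the 23214 pooled regions, that of Drice ranked 5335, that of Dcp-1 6206, that of skl 15777, that of Dronc 17332 and that of grim 22851. The Drice region, 85 bp upstream of the TSS, had relative signals of 0.68 and 0.56 in replicates 1 and 2 and no peak in replicate 3. The Dcp-1 region had 0.58 and 0.56 in replicates 1 and 2 and no peak in replicate 3, and its summit lay nearer to a TSS of pita, the gene within which Dcp-1 lies on the other strand. At Dronc the values were 0.19 and 0.25 in replicates 1 and 2, at skl a peak of 0.17 was present in replicate 3 alone, and at grim 0 replicates had a peak.

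Dark, which encodes the adaptor that assembles Dronc into the apoptosome, lies on chromosome 2R (17020027 to 17026703). Its window held 4 sites, and replicate 3 had no peak at any of them. The site in its own 5′ UTR, 187 bp downstream of the TSS, had relative signals of 0.77 and 0.84 in replicates 1 and 2 (0.81 ± 0.05, SD, n = 2). A second promoter site lay 662 bp upstream of Dark, in the 5′ UTR of the divergent gene Paip1 and 157 bp from its TSS, with 0.80 and 0.98 (0.89 ± 0.13, SD, n = 2). The strongest site of the window lay 285 bp upstream of RhoGEF2, with 1.45 and 1.01 (1.23 ± 0.31, SD, n = 2). The fourth, 58 bp upstream of CG6805, had a peak of 0.54 in replicate 1 alone. By its stronger promoter site Dark ranked 1634 among the 2607 genes with one. With the strongest peaks of replicate 3 alone, Dark had no promoter site, and the genes with one were hid, rpr and Diap1, against 13.7% of protein-coding genes. With those of replicate 1 alone Drice was added to the 4, against 18.8%.

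Replicate 3 differed from the others at promoters in these windows. It lacked a peak at 5 of the 26 sites (the 4 of the Dark window and the Etfb site), against 11.8% of all sites. All 5 lay within 1000 bp of a protein-coding TSS, where 13 of the 26 sites lay, and 0 of the 13 sites farther away lacked one. Over all sites, replicate 3 lacked a peak at 20.9% of those within 1000 bp of a protein-coding TSS and at 4.02% of those farther away. Whether this difference between the libraries accounts for the low values at Dark was not tested.

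Diap1, the gene for the caspase inhibitor that the death activators displace, lies on chromosome 3L (16038410 to 16051034) and carried its sites inside the gene. Of the 6 sites of its window, 4 lay in introns of Diap1 and were nearest to one of its 5 TSSs. The strongest, from 16043040 to 16043648, had its summit 637 bp upstream of an internal TSS. Relative signal was 1.16, 1.48 and 2.03 in replicates 1, 2 and 3, a mean of 1.56 ± 0.44 (SD, n = 3). All 3 values lay above the median site, and by this site Diap1 ranked 891 among the 2607 genes with a promoter site.

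The other sites inside Diap1 were close to the median site. One, 716 bp downstream of a TSS, had 0.95, 1.36 and 1.42 (1.25 ± 0.25), and another, 917 bp upstream of one, had 0.86, 1.37 and 0.54 (0.92 ± 0.42; SD, n = 3). The fourth, 1543 bp upstream of a TSS, reached 0.83 ± 0.31 (SD, n = 3). The strongest site was above the sites at 716 and 917 bp in all 3 replicates, and the fourth, at 1.18 in replicate 1, was above it there. No site lay within 1000 bp of the outermost TSS. The remaining sites of the window were in the 3′ UTR of CG5895 (0.71 ± 0.13) and in an intron of Notum, which encodes a secreted Wnt inhibitor (0.70 ± 0.24; SD, n = 3).

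**Figure D3:**
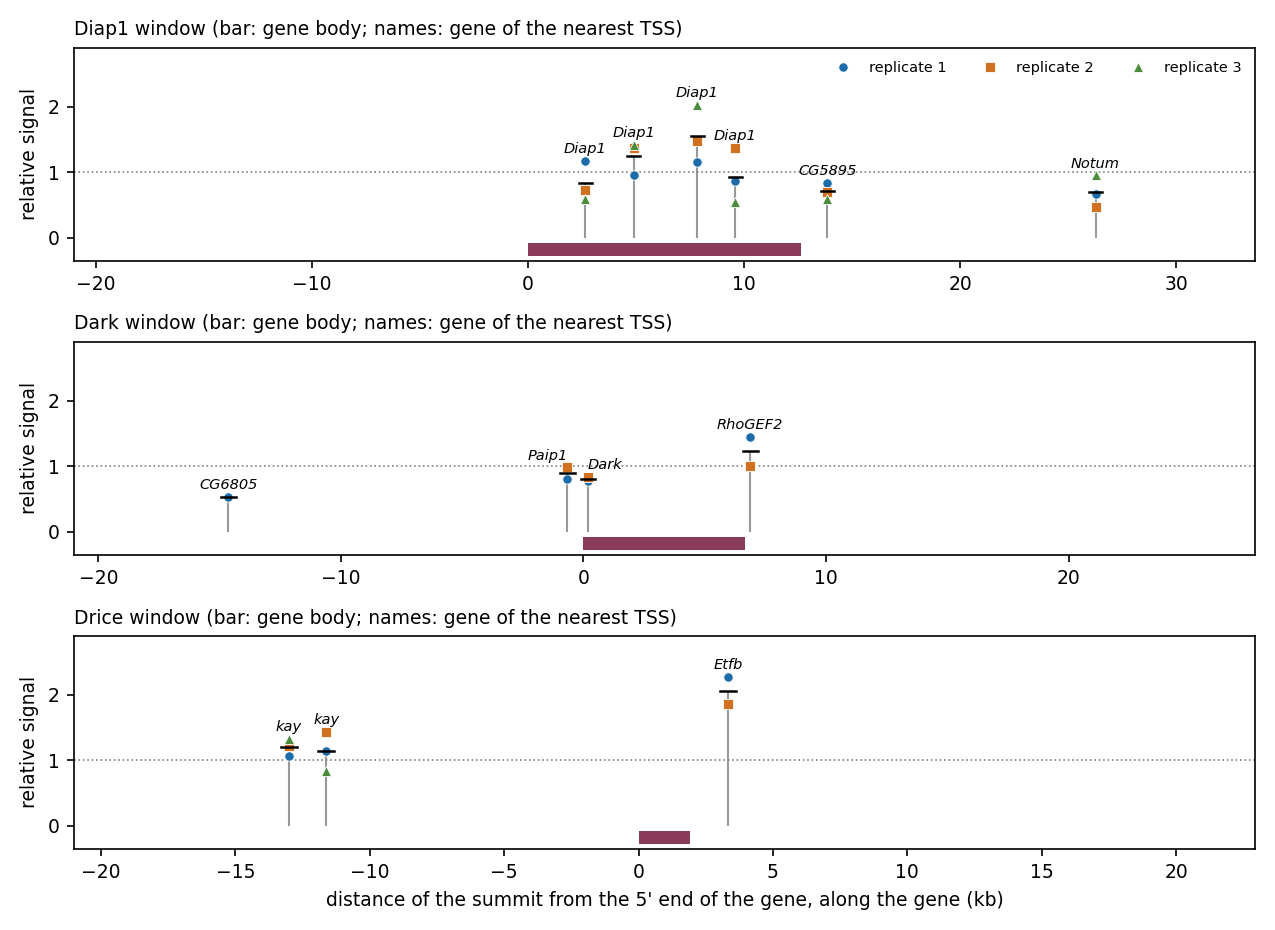
Relative signal (vertical axis, 1 is the median site) of the sites in the windows of Diap1, Dark and Drice, by distance of the summit from the 5′ end of the gene in kb (horizontal axis). Points are replicates, short black lines are means, bars are gene bodies and names give the gene of the nearest TSS. The Diap1 sites with highest signal lie inside the gene, whereas no green triangle for replicate 3 stands in the Dark panel or at Etfb.

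The order of the strongest sites of the 6 windows with one was uncertain. Those of the hid, Drice, Dark and Dcp-1 windows were nearest to the TSS of CG13699, Etfb, RhoGEF2 and apt in turn. The order is thus one of windows, not of binding at the death genes themselves. Mean relative signals of these strongest sites were 4.56 ± 1.05 for hid, 2.07 ± 0.29 for Drice, 1.95 ± 0.68 for rpr, 1.56 ± 0.44 for Diap1, 1.23 ± 0.31 for Dark and 1.22 ± 0.34 for Dcp-1 (SD, n = 3, and n = 2 for Drice and Dark). The hid value was above that of Drice in both replicates with both peaks, by 3.01 ± 1.07 (SD, n = 2; exact paired permutation test, two-sided p = 0.5, the smallest that 2 replicates allow). The replicates of the strongest site of the hid window, at CG13699, ran from 3.53 to 5.63. They do not overlap those of rpr, from 1.16 to 2.38. At the promoter site of hid itself the values were 2.55, 2.38 and 3.61, the lowest of them level with the highest of rpr. The Drice mean, which lacks replicate 3, was above that of rpr, but in both replicates with both peaks rpr was higher, with Drice minus rpr at -0.27 ± 0.34 (SD, n = 2; exact paired permutation test, two-sided p = 0.5). rpr was above Diap1 in 2 of 3 replicates, by 0.39 ± 1.09 (SD, n = 3; exact paired permutation test, two-sided p = 0.5, where 0.25 is the smallest possible). Diap1 was above Dark in 1 of 2 replicates and Dark above Dcp-1 in 2 of 2, with differences of 0.09 ± 0.54 and 0.20 ± 0.19 (SD, n = 2; exact paired permutation tests, two-sided p = 1 and 0.5). The design cannot reach a p below 0.25, so none of these 5 differences could pass a threshold of 0.05.

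**Figure D4:**
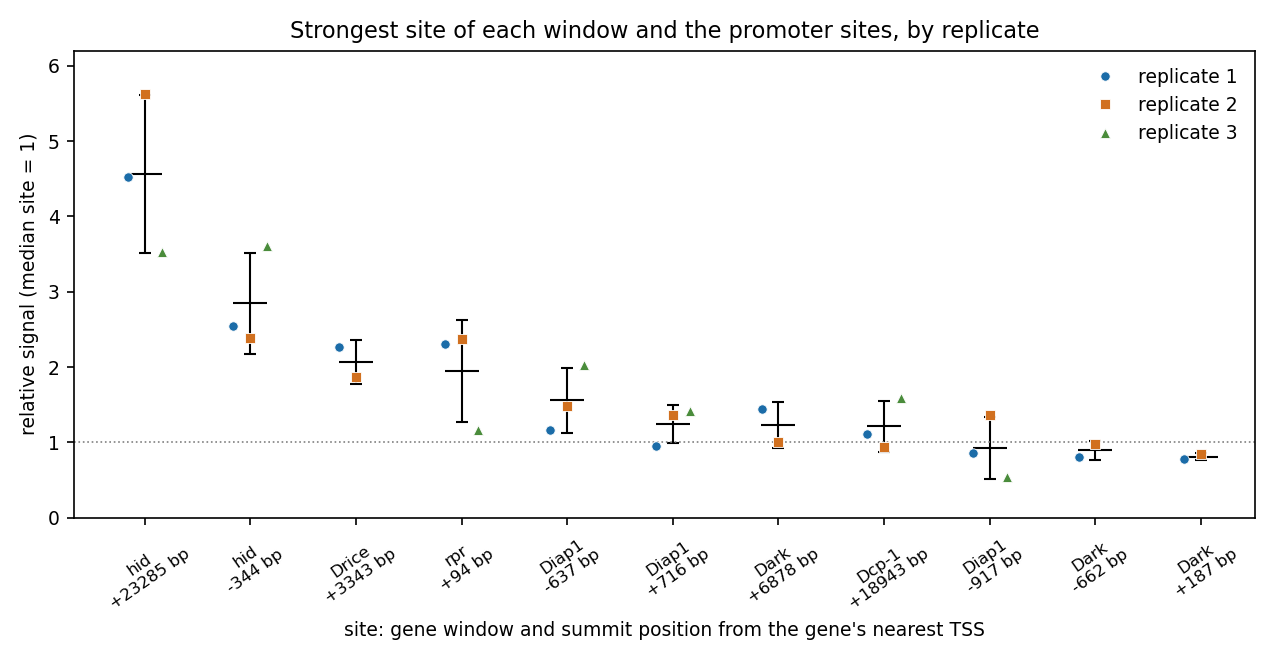
Relative signal (vertical axis, 1 is the median site) of the strongest site of each window and of every promoter site, ordered by mean, with the position of the summit from the gene's nearest TSS in bp under each gene name (horizontal axis). Points are replicates and black bars are means ± SD. The sites of the hid window stand highest, and those of the Dark window and the strongest of the Drice window have points from replicates 1 and 2 alone.

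Over the 26 sites, mean relative signals ran from 0.54 to 4.56 with a median of 1.22, against a median of 0.98 over all sites. By deposited signal, 17 of the 26 (65.4%) were at or above the median site. Support, meaning an overlap with the strongest peaks of a replicate, came from all 3 replicates at 18 of the 26 (69.2%), against 56.9% of all sites. It came from 2 replicates at 7 sites and from 0 at 1, the CG6805 site. The summits lay in intergenic sequence at 12 sites, in introns at 9, in 5′ UTRs at 4 and in a 3′ UTR at 1. Of the 26, 12 were nearest to the TSS of one of the 9 genes and 14 to that of another gene, and 13 (50%) lay within 1000 bp of a protein-coding TSS, against 46.2% of all sites. At the edge of the windows, the last sites inside lay 13.0 kb from Drice (1.21 ± 0.13), 13.6 kb from Diap1 (0.70 ± 0.24) and 16.7 kb from Dcp-1 (1.22 ± 0.34; SD, n = 3). The first sites outside lay 21.3 kb from Drice (0.80 ± 0.10), 22.3 kb from Diap1 (0.93 ± 0.27) and 27.3 kb from Dcp-1 (0.54 ± 0.23; SD, n = 3).

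Other genes of the cell death pathway are given for comparison by counts. Of 39 such genes, all protein-coding but mir-ban, 34 had a site in the window (87.2%) and 14 a promoter site (35.9%), against the 76.2% and 18.7% of all protein-coding genes given above. The median was 2 sites per window. A promoter site supported by all 3 replicates was found at 7 of the 39, against 10% of all protein-coding genes. The strongest promoter site was that of drpr, which encodes the receptor for engulfing dying cells, 898 bp from a TSS on chromosome 3L, with relative signals of 4.99, 4.95 and 2.25 (4.06 ± 1.57, SD, n = 3). Next came the cytochrome c genes Cyt-c-p (2.75 ± 0.26) and Cyt-c-d (2.24 ± 0.64), which lie side by side. They were followed by puc, the phosphatase gene that restrains JNK signalling (1.95 ± 1.02), and kay (1.80 ± 0.34; SD, n = 3).

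By function, promoter sites in this list were found at 4 of 11 genes of JNK signalling, the stress pathway that can induce hid and rpr in Drosophila (egr, Traf4, puc and kay), at 2 of 4 further caspases, Strica (0.70 ± 0.0042; SD, n = 2) and Decay (0.47 ± 0.18; SD, n = 3), at 2 of 5 nuclease or nuclease-related genes and at 2 of 3 genes for corpse clearance. The share among all protein-coding genes was 18.7%. The groups are small, and differences between them or from that share were not tested. The inhibitors of apoptosis Diap2 and Bruce, the Bcl-2 family genes Debcl and Buffy and the mitochondrial protein genes HtrA2 and AIF had 0 promoter sites. The promoter sites of EndoG, a nuclease gene, and Drep4, which encodes the fly's caspase-activated DNase, reached 0.71 ± 0.12 without a peak in replicate 3 and 0.77 ± 0.04 without one in replicate 2 (SD, n = 2).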

How the data were processed

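ChIP-seq peak lists of 3 biological replicates of 1 group were used. The authors deposited, in narrowPeak layout on dm6, an IDR list, a relaxed list of 30000 peaks per replicate and 1 for the replicates pooled. Signal was column 7 of these deposited lists. Its scaling, the aligner and the peak caller are items not given in the sources used here. The deposited lists on dm3 were not used.

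The 5573 IDR peaks that overlapped by at least 1 bp were merged into 4990 sites with the summit of the strongest peak (Python 3.11.15, numpy 2.4.6). Replicate signal was that of the strongest overlapping peak of the replicate's relaxed list, and means cover replicates with a peak. A site was supported by a replicate when it overlapped one of the 4990 strongest peaks there. Genes and TSSs came from Ensembl release 115 (FlyBase 6.54). The routines for merging, signal and sequence matching were tested on simulated data.

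Sites were named by rule: the strongest site of each window, every promoter site and the 3 strongest sites of the hid to skl interval. These are 12 sites. Values of further sites in the windows and the interval are also given, outside this rule. Of the other cell death genes, the 5 with the strongest promoter site were named, and further ones after their values were seen. The 9 genes and all lists were chosen with earlier results of these data known. No set test was made. The labels call the replicates biological and say no more of their source, so the spread between them may be partly technical. A control experiment named in the labels as possible was not analysed here.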

Additional observations from a re-analysis of the deposited data

How the results depend on the processing

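The counts depended on the width of the windows and on the list. Against 26 sites with 20 kb flanks, 14 lay within 5 kb of the genes and 7 inside gene bodies, 17 were at or above the median signal, and the pooled relaxed list held 100 regions. With that list, which includes background, all 9 genes had a promoter region, against 4 with sites. For the consensus, in place of 6 sites, 0 had a full match, 15 a match with at most 2 mismatches and 1 GTGAAAG. Dividing by the median of the whole relaxed list, a smaller divisor by construction, raised the median over the 12 sites named by rule from 1.40 to 5.74. With missing replicates set to the lowest signal of their list, the strongest site of the Drice window fell to 1.43. The 3 named sites of the Dark window fell to 0.87, 0.65 and 0.59. Leaving out each replicate in turn gave 19 to 23 sites supported by both others, a median relative signal of 1.28 to 1.57, and 2 to 4 of the 5 neighbouring pairs that followed the order of the means over the replicates kept in each of those with both peaks, against 2 with all replicates. The 4 came without replicate 3. The other alternatives left the counts of sites and genes within 1.5 times those reported. Read depth is unknown, so no counting error can be given. With 1 group there is no comparison between groups to pair, and sites were paired within replicates.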

Other observations

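Some other cell death genes had stronger sites in their windows than at their promoters, named here after their values were seen. The strongest lay in the window of ced-6, which encodes an adaptor for engulfment, 13.9 kb from its TSS and nearer to that of Pdk, with relative signals of 11.1, 9.89 and 9.01 in replicates 1, 2 and 3 (SD 1.05, n = 3). It ranked 30 among all sites. In the window of drpr a site 15.7 kb upstream, nearer to CG13921, reached 6.04 ± 1.93 (SD, n = 3). The window of the microRNA gene mir-ban, known in Drosophila to repress hid, held 7 sites. It had 0 promoter sites as counted from its annotated start, and no other start was examined.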
